A study of Mus musculus with 32 samples.

Results

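The genes described here are 7 Krüppel-like factors (Klf2, Klf4, Klf5, Klf6, Klf9, Klf10 and Klf13) and 2 immediate early transcription factors, Egr1 and Nr4a1, in early-passage primary mouse embryonic fibroblasts (MEFs). The members were taken by symbol or older synonym, whatever their values, and every probe set annotated to them on both array types was used. This gave 9 genes and 24 probe sets out of 45265 on the arrays, 21 of them on array A and 3 on array B. Of these 24, 19 passed a filter on dim probe sets and were tested, among 27084 tested in all. The study measured total RNA of MEFs with a mutation of Oct-1 and of wild type MEFs on Affymetrix expression arrays, with and without irradiation. The 4 groups were Oct-1 mutant irradiated, Oct-1 mutant unirradiated, wild type irradiated and wild type unirradiated, each with 4 RNA extracts hybridised to both array types. The labels name neither the mutant allele nor the radiation dose or the time from irradiation to harvest, and the level of Oct-1 itself was not analysed here. The title numbers of the extracts form 2 runs, with replicates 1 and 2 of each group in the first and replicates 3 and 4 in the second.

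Krüppel-like factors are zinc finger proteins that bind CACCC and GC-rich motifs, some as activators and some as repressors, and many of them link growth signals to cell cycle arrest or to differentiation. Egr1 is a zinc finger factor that serum and stress induce within minutes through serum response factor, and Nr4a1 (Nur77) is an orphan nuclear receptor of the same early response. Klf4 is known to be induced by DNA damage in a p53-dependent way in fibroblasts and to activate the cell cycle inhibitor Cdkn1a. Oct-1, encoded by Pou2f1, is a POU domain factor that binds the octamer motif and is known for roles in stress responses.

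The extracts showed a fibroblast profile: 18 of 18 fibroblast markers on the arrays passed the filter, at percentiles of the array mean between 57.4 and 99.9 with a median of 98.1. Of the other marker lists, 3 of 12 endothelial, 5 of 10 epithelial and 3 of 12 macrophage and blood genes passed, and Pecam1, Cdh5, Cdh1 and Ptprc did not. Among the epithelial genes, Epcam was at the 97.9 percentile of array B and Ocln at 69.6. The Epcam probe set ends in _x_at, the Affymetrix suffix for probes that may also bind other transcripts. The Ocln probe set averaged a log2 value of 4.67, above the array B filter (3.362) and below that of array A (4.962). Krt19 was at the 68.2 percentile of array A, Krt5 at 41.5 and Krt18 at 40.4. The endothelial genes that passed were Flt1 at the 75.2 percentile of array A, Egfl7 at 65.4 and Eng at 65.1, and the macrophage and blood genes were Csf1r at 52.9, Lyz2 at 50.8 and Adgre1 at 50.1. The mean log2 value over the fibroblast list was 11.57 to 11.97 in Oct-1 mutant irradiated and 11.69 to 12.09 in Oct-1 mutant unirradiated extracts, against 11.19 to 11.42 in wild type irradiated and 11.35 to 11.57 in wild type unirradiated extracts. Every mutant extract was above every wild type extract on this list, by a narrow margin (lowest mutant 11.575, highest wild type 11.565). The run also moved these markers: second minus first, 14 of 18 were called higher and 3 lower, with 12.4% and 18.5% over all probe sets. Among them were Lum (-1.04), Fap (0.86), Dcn (0.79), Thy1 (0.49) and Pdgfra (-0.29). Averaged over irradiation, limma called the matrix proteoglycan genes Dcn (2.01) and Lum (1.46), and Fap (0.76), Pdgfra (0.49) and Thy1 (0.49), higher in the mutant on the log2 scale, with Dcn called in irradiated (1.77) and in unirradiated MEFs (2.25). The epithelial keratin Krt18 was 0.46 higher in the mutant. After irradiation Pdgfra (-0.75 in the mutant, -0.69 in wild type), Twist1 (-0.44 and -0.55) and Prrx1 (-0.38 and -0.45) fell in both genotypes, and Pdgfrb fell by 0.56 averaged over genotypes. The part of this difference in the genotype results below was not tested, and in bulk RNA more cells of a type and more RNA per cell cannot be told apart. Replicates of a group correlated at 0.973 or more over probe sets.

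The 250 bases before the RefSeq transcription start (build GRCm38.p6) are shown for the 3 members whose level differed between genotypes, since the mutated factor binds DNA. Windows were given for 6 of the 9 members. The Klf4 window, chr4:55532476-55532725 on the minus strand, has 74% G and C. Capitals in it mark the GC box GGGCGG on either strand, the kind of motif that SP and KLF proteins bind, with 4 matches between positions -217 and -101, the first 2 of which share 1 base. The Nr4a1 window, chr15:101266596-101266845 on the plus strand, has 74.4% G and C. Capitals in it mark TGCGTCA, an AP-1-like element known from this promoter, with 4 matches between -235 and -42. The Klf2 window, chr8:72318812-72319061 on the plus strand, has 71.2% G and C. Capitals in it mark the MEF2 site, through which the kinase ERK5 is known to induce Klf2, with 1 match at -118.
Klf4: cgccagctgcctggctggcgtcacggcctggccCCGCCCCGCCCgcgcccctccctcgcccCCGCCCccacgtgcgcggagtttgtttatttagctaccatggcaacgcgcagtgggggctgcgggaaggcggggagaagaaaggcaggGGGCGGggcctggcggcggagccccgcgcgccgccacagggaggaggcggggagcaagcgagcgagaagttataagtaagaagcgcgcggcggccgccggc
Nr4a1: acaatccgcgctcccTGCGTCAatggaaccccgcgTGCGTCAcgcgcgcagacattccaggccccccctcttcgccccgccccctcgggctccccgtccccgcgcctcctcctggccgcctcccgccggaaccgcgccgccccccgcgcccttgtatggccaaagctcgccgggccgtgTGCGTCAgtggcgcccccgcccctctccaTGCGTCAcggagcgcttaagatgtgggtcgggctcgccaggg
Klf2: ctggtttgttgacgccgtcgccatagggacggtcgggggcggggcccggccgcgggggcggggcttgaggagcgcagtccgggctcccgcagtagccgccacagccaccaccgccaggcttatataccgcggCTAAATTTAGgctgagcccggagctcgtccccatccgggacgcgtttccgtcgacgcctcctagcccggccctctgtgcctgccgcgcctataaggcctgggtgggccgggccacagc
The octamer ATGCAAAT, searched on both strands, had 0 matches in the 6 windows (the other 3 were those of Klf6, Klf9 and Klf13), and 1.6% of all 32851 promoter windows of this length hold it. The GC box was in 32.7% of all windows, TGCGTCA in 1.75% and the MEF2 site in 0.508%. The GC box was not particular to Klf4. It had 3 matches each in the Nr4a1 and Klf13 windows, 2 in that of Klf2, 1 in that of Klf6 and 0 in that of Klf9. Those in the Nr4a1 and Klf2 windows are not capitalised. The CRE motif TGACGTCA (1.55% of all windows), the CArG box bound by serum response factor (1.47%), the p53 decamer (7.13%) and TATAAA (12.4%) each had 0 matches in the 6 windows. CACCC, which is in 52% of all windows, had 1 match each in the Klf2, Klf9 and Klf13 windows. A match or its absence is a description of these letters only.

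Klf4, the damage-induced KLF, differed in each of the 4 group comparisons on both of its probe sets: it was higher after irradiation in both genotypes, and higher in Oct-1 mutant than in wild type MEFs in both irradiation states. Probe set 1417394_at had log2 values of 10.23, 10.27, 9.96 and 10.12 in Oct-1 mutant irradiated and 9.52, 9.53, 9.72 and 9.67 in Oct-1 mutant unirradiated extracts. The values were 9.38, 9.44, 9.40 and 9.84 in wild type irradiated and 8.57, 8.58, 8.79 and 8.78 in wild type unirradiated extracts. The ranges did not overlap between irradiated and unirradiated extracts of a genotype, nor between genotypes in one irradiation state. Unirradiated mutant extracts overlapped irradiated wild type extracts, through wild type irradiated replicate 4.

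Irradiation raised 1417394_at 1.45-fold in Oct-1 mutant MEFs (log2 0.53, SE 0.11, adjusted p = 0.00679) and 1.78-fold in wild type MEFs (log2 0.84, SE 0.11, adjusted p = 0.000149). Between genotypes it was 1.55-fold higher in irradiated Oct-1 mutant than in irradiated wild type MEFs (log2 0.63, SE 0.11, adjusted p = 0.00217). In unirradiated MEFs it was 1.91-fold higher in the mutant (log2 0.93, SE 0.11, adjusted p = 5.54e-05). These 4 calls were made with each of the 16 extracts left out in turn. The 2 runs gave close values for irradiation in wild type (0.84 in the first run, 0.83 in the second) and for genotype in unirradiated MEFs (0.95 and 0.91). The other pair was smaller in the second run: irradiation in the mutant gave 0.73 in the first run and 0.34 in the second (adjusted p = 0.238), and genotype in irradiated MEFs gave 0.84 in the first and 0.42 in the second (adjusted p = 0.124).

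The other Klf4 probe set, 1417395_at, had log2 values of 6.85, 7.08, 7.22 and 7.32 in Oct-1 mutant irradiated and 6.33, 6.45, 6.58 and 6.70 in Oct-1 mutant unirradiated extracts. The values were 6.32, 6.49, 6.52 and 6.77 in wild type irradiated and 5.36, 4.92, 5.40 and 5.53 in wild type unirradiated extracts. The wild type unirradiated extracts stood below the other 12, and unirradiated mutant and irradiated wild type extracts covered nearly the same range. Irradiation raised this probe set 1.52-fold in Oct-1 mutant MEFs (log2 0.60, SE 0.14, adjusted p = 0.0234) and 2.34-fold in wild type MEFs (log2 1.23, SE 0.14, adjusted p = 8.37e-05). It was 1.51-fold higher in irradiated Oct-1 mutant than in irradiated wild type MEFs (log2 0.59, SE 0.14, adjusted p = 0.0313). In unirradiated MEFs it was 2.32-fold higher in the mutant (log2 1.21, SE 0.14, adjusted p = 8.05e-05). The irradiation call in the mutant was lost without mutant irradiated replicate 2, 3 or 4 or without mutant unirradiated replicate 1 or 2 (adjusted p up to 0.0812). The genotype call in irradiated MEFs was lost without mutant irradiated replicate 2, 3 or 4 or without wild type irradiated replicate 1, 2 or 3 (adjusted p up to 0.109). Within runs, irradiation gave 0.57 and 0.63 in the mutant and 1.27 and 1.18 in wild type, and genotype gave 0.56 and 0.62 in irradiated and 1.25 and 1.18 in unirradiated MEFs.

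**Figure D1:**
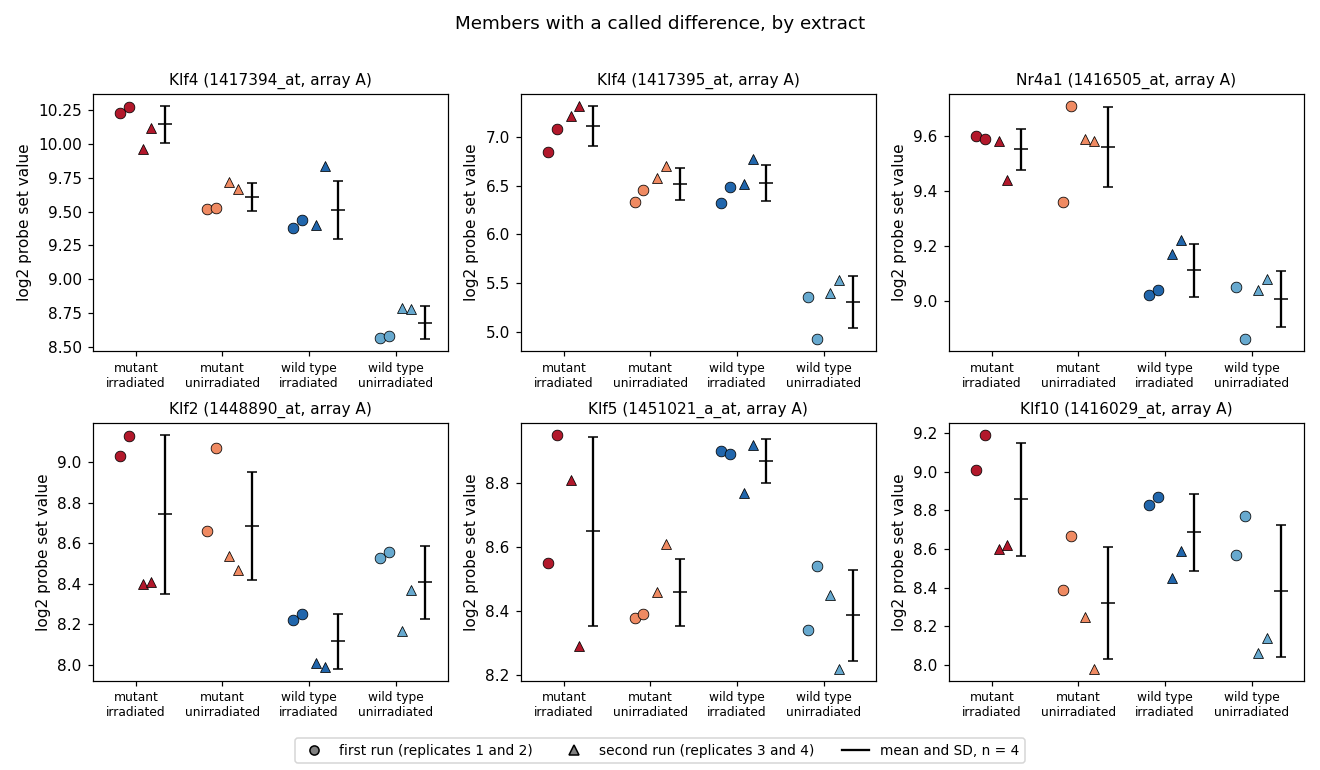
Log2 values of 6 probe sets of Klf4, Nr4a1, Klf2, Klf5 and Klf10 in each RNA extract (y axis, one scale per panel) by group (x axis); circles are the first run, triangles the second, and the bar is the mean and SD of 4 extracts. For Klf4 the wild type unirradiated extracts lie lowest, for Nr4a1 the mutant groups lie above the wild type groups, and for Klf2 and Klf10 the circles lie mostly above the triangles.

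Whether the irradiation effect on Klf4 differed between genotypes was tested as the difference of the effects, mutant minus wild type. It was -0.30 for 1417394_at (95% interval -0.62 to 0.02) and -0.62 for 1417395_at (95% interval -1.06 to -0.19). The limma test gave an unadjusted p of 0.00773 for 1417395_at, and neither probe set passed after adjustment (adjusted p = 1 for both). Over all 19 tested member probe sets limma called 0 differences, as it did over all probe sets (0%), and 1 of 19 was under 0.05 unadjusted, where 395 of 27084 (1.46%) were.

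Klf2, a factor known for quiescence and for the response of endothelium to flow, was also higher in Oct-1 mutant MEFs when both irradiation states were averaged. Probe set 1448890_at had log2 values of 9.03, 9.13, 8.40 and 8.41 in Oct-1 mutant irradiated extracts, against 8.22, 8.25, 8.01 and 7.99 in wild type irradiated extracts. It had 8.66, 9.07, 8.54 and 8.47 in Oct-1 mutant unirradiated extracts, against 8.53, 8.56, 8.17 and 8.37 in wild type unirradiated extracts. The irradiated groups did not overlap and the unirradiated groups did, and in every group both extracts of the first run stood above both of the second. Averaged over irradiation, Klf2 was 1.37-fold higher in the mutant (log2 0.45, SE 0.12, adjusted p = 0.0252; 0.58 in the first run and 0.32 in the second). This call was lost without wild type unirradiated replicate 3 (adjusted p = 0.0544). Among irradiated MEFs the difference was 0.63 (SE 0.17, adjusted p = 0.0563), and with the replicate block it passed (adjusted p = 0.000497). Among unirradiated MEFs it was 0.28 (SE 0.17, adjusted p = 0.529). Irradiation gave 0.06 in Oct-1 mutant (95% interval -0.31 to 0.42) and -0.29 in wild type MEFs (95% interval -0.66 to 0.07), with adjusted p of 0.922 and 0.473. Of the endothelial markers, Flt1 was at the 75.2 percentile of its array, and the defining Pecam1 and Cdh5 did not pass the filter.

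Klf5, a factor of proliferating cells that responds to growth factors, was higher after irradiation in wild type MEFs. Probe set 1451021_a_at had log2 values of 8.90, 8.89, 8.77 and 8.92 in wild type irradiated extracts, against 8.34, 8.54, 8.45 and 8.22 in wild type unirradiated extracts. In the mutant it had 8.55, 8.95, 8.81 and 8.29 in irradiated extracts, against 8.38, 8.39, 8.46 and 8.61 in unirradiated extracts. The wild type groups did not overlap, and the mutant groups did. The rise in wild type was 1.40-fold (log2 0.48, SE 0.12, adjusted p = 0.0357), with 0.45 in the first run (adjusted p = 0.117) and 0.51 in the second (adjusted p = 0.166). It was lost with no filter on dim probe sets (adjusted p = 0.0573). It was also lost without any one of the 4 wild type irradiated extracts, without wild type unirradiated replicate 1, 3 or 4 or without mutant unirradiated replicate 3 (adjusted p up to 0.0966). In Oct-1 mutant MEFs the difference was 0.19 (95% interval -0.07 to 0.45, adjusted p = 0.467). Averaged over genotypes it was 0.34 (SE 0.09, adjusted p = 0.0166). The other tested Klf5 probe set, 1430255_at on array B, lay between 3.93 and 4.19 in all extracts and had irradiation differences of 0.09 in the mutant and 0.02 in wild type, neither called.

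Klf10, a repressor known as an early target of TGF-beta, was higher after irradiation when both genotypes were averaged. Probe set 1416029_at had log2 values of 9.01, 9.19, 8.60 and 8.62 in Oct-1 mutant irradiated extracts, against 8.39, 8.67, 8.25 and 7.98 in Oct-1 mutant unirradiated extracts. It had 8.83, 8.87, 8.45 and 8.59 in wild type irradiated extracts, against 8.57, 8.77, 8.06 and 8.14 in wild type unirradiated extracts. The groups overlapped, but in each of the 4 same-numbered pairs of each genotype the irradiated extract was the higher one. The averaged rise was 1.34-fold (log2 0.42, SE 0.13, adjusted p = 0.048; 0.38 and 0.46 in the runs). It was lost with no filter (adjusted p = 0.0764), and when an extract was left out it was kept only without mutant irradiated replicate 3 or 4, mutant unirradiated replicate 2, wild type irradiated replicate 3 or wild type unirradiated replicate 2 (adjusted p up to 0.0978 otherwise). Within genotypes the difference was 0.54 in Oct-1 mutant (SE 0.19, adjusted p = 0.127) and 0.30 in wild type MEFs (SE 0.19, adjusted p = 0.5). With the replicate block both passed (adjusted p = 0.000392 in the mutant and 0.0251 in wild type).

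Klf6, a broadly expressed KLF known as a growth suppressor, was measured by 5 probe sets. Their irradiation differences lay between -0.09 and 0.19 in Oct-1 mutant and between -0.14 and 0.03 in wild type MEFs. Mutant minus wild type differences lay between -0.14 and 0.03 in irradiated and between -0.29 and -0.05 in unirradiated MEFs. In these 4 comparisons limma called 0 of the 12 tested probe sets of Klf6, Klf9, Klf13 and Egr1, and 0 of them were under 0.05 unadjusted. Over all 27084 tested probe sets, 383 to 448 were called higher and 182 to 276 lower in these comparisons. Between 3024 and 3436 of all were under 0.05 unadjusted. The probe set taken as primary, 1433508_at, averaged 10.25 ± 0.20 in Oct-1 mutant irradiated and 10.33 ± 0.08 in Oct-1 mutant unirradiated, and 10.24 ± 0.11 in wild type irradiated and 10.38 ± 0.22 in wild type unirradiated extracts (SD, n = 4 each). Within the second run alone it was 0.29 lower after irradiation, averaged over genotypes (log2 -0.29, adjusted p = 0.0243), while the first run gave 0.07. Probe set 1418280_at was lower in the mutant in the second run alone, averaged over irradiation (log2 -0.40, adjusted p = 0.0239), with -0.02 in the first run and -0.21 over both runs (adjusted p = 0.517). The array B probe sets of Klf6 end in _s_at and _x_at, which in Affymetrix naming marks probes that may also bind other transcripts.

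Klf9, a repressor induced by glucocorticoid and thyroid hormone, had 4 tested probe sets of 7. Irradiation differences lay between -0.09 and 0.12 in Oct-1 mutant and between -0.12 and 0.18 in wild type MEFs. Mutant minus wild type differences lay between -0.05 and 0.16 in irradiated and between -0.05 and 0.22 in unirradiated MEFs. Its primary probe set, 1428288_at, averaged 9.65 ± 0.15 in Oct-1 mutant irradiated and 9.73 ± 0.09 in Oct-1 mutant unirradiated, and 9.65 ± 0.16 in wild type irradiated and 9.77 ± 0.12 in wild type unirradiated extracts. Klf13, a KLF known for a role in T cell cytokine expression, had 2 tested probe sets of 3. Irradiation gave -0.48 (1436316_at) and 0.02 (1432543_a_at) in Oct-1 mutant and -0.08 and 0.20 in wild type MEFs. Probe set 1436316_at lay between 7.42 and 8.50 in 15 extracts and at 9.93 in Oct-1 mutant unirradiated replicate 4. The 5 probe sets that did not pass the filter were 3 of Klf9 and 1 each of Klf5 and Klf13, and they have no test.

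Nr4a1, the orphan nuclear receptor, was higher in Oct-1 mutant MEFs whether irradiated or not. Its probe set 1416505_at had log2 values of 9.60, 9.59, 9.58 and 9.44 in Oct-1 mutant irradiated extracts, against 9.02, 9.04, 9.17 and 9.22 in wild type irradiated extracts. In unirradiated extracts it had 9.36, 9.71, 9.59 and 9.58 in the mutant, against 9.05, 8.86, 9.04 and 9.08 in wild type. All 8 mutant extracts lay above all 8 wild type extracts. The mutant was 1.36-fold higher in irradiated MEFs (log2 0.44, SE 0.08, adjusted p = 0.00494; 0.56 in the first run and 0.32, adjusted p = 0.0748, in the second). It was 1.47-fold higher in unirradiated MEFs (log2 0.55, SE 0.08, adjusted p = 0.00074; 0.58 and 0.52 in the runs). Both calls were made with each extract left out in turn. Irradiation gave log2 differences of -0.01 in Oct-1 mutant (95% interval -0.18 to 0.17, adjusted p = 0.982) and 0.10 in wild type MEFs (95% interval -0.07 to 0.28, adjusted p = 0.64).

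Egr1 passed no comparison of genotype or irradiation. Probe set 1417065_at had log2 values of 10.65, 11.07, 10.02 and 9.87 in Oct-1 mutant irradiated extracts, against 10.14, 10.36, 10.13 and 10.23 in Oct-1 mutant unirradiated extracts. It had 10.40, 10.27, 9.63 and 9.90 in wild type irradiated extracts, against 10.47, 10.48, 9.85 and 9.99 in wild type unirradiated extracts. All groups overlapped, and irradiation gave 0.19 in Oct-1 mutant (95% interval -0.32 to 0.69, adjusted p = 0.781) and -0.14 in wild type MEFs (95% interval -0.65 to 0.36, adjusted p = 0.873). Genotype gave 0.35 in irradiated (adjusted p = 0.577) and 0.02 in unirradiated MEFs (adjusted p = 0.991). The limma fit held no term for the run, so these intervals include the spread between runs. With the run block the SE of each of these differences was 0.13 against 0.24, and the adjusted p lay between 0.112 and 0.956. In the mutant the irradiation values of the runs had opposite signs, with 0.61 in the first run (adjusted p = 0.0249) and -0.24 in the second (adjusted p = 0.305). Averaged over genotypes, the irradiation effect on Egr1 differed by -0.43 between runs, second minus first (SE 0.13, adjusted p = 0.443).

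**Figure D2:**
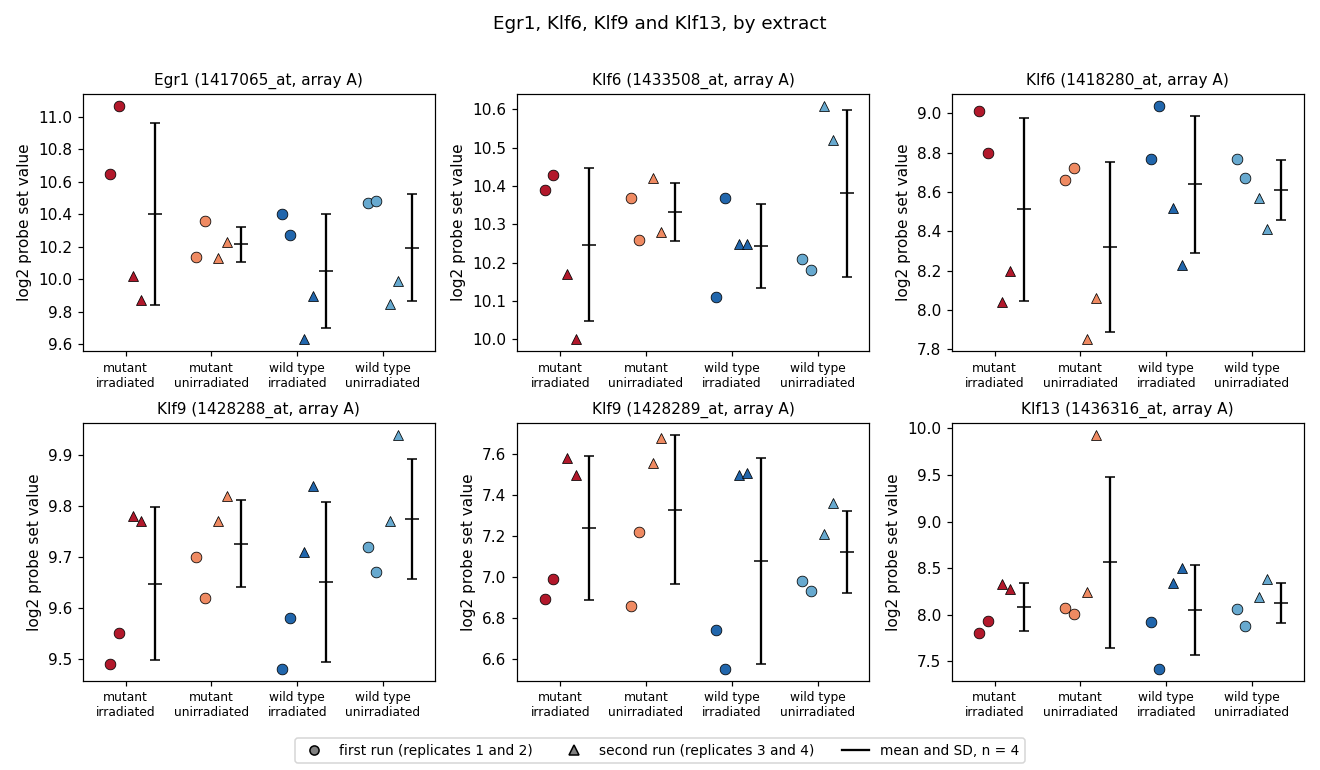
Log2 values of 6 probe sets of Egr1, Klf6, Klf9 and Klf13 in each RNA extract (y axis, one scale per panel) by group (x axis); circles are the first run, triangles the second, and the bar is the mean and SD of 4 extracts. The groups overlap in every panel, and Egr1 and Klf6 1418280_at stand higher in the first run while Klf9 1428289_at stands higher in the second.

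Over both runs together irradiation passed the test, always as a rise, in 2 of 19 member probe sets in Oct-1 mutant MEFs (Klf4 on both probe sets) and in 3 of 19 in wild type MEFs (Klf4 on both and Klf5). Over all probe sets 1.65% were called higher in the mutant and 1.47% in wild type. Averaged over genotypes 4 of 19 were higher, with 4.5% over all. Over both runs together genotype passed, always as higher in the mutant, in 3 of 19 among irradiated MEFs and in 3 of 19 among unirradiated MEFs, each time Klf4 on both probe sets and Nr4a1. Over all probe sets 1.41% and 1.45% were called higher in those comparisons, and averaged over irradiation 4 of 19 were, against 3.77% over all. The median difference of the 19 member probe sets was 0.09 for irradiation in the mutant and 0.02 in wild type, and 0.04 and 0.02 for genotype in irradiated and unirradiated MEFs. Over all probe sets those medians were 0.02, 0.01, 0.02 and 0.01. The genotype and irradiation comparisons share groups, so their counts are not independent.

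**Figure D3:**
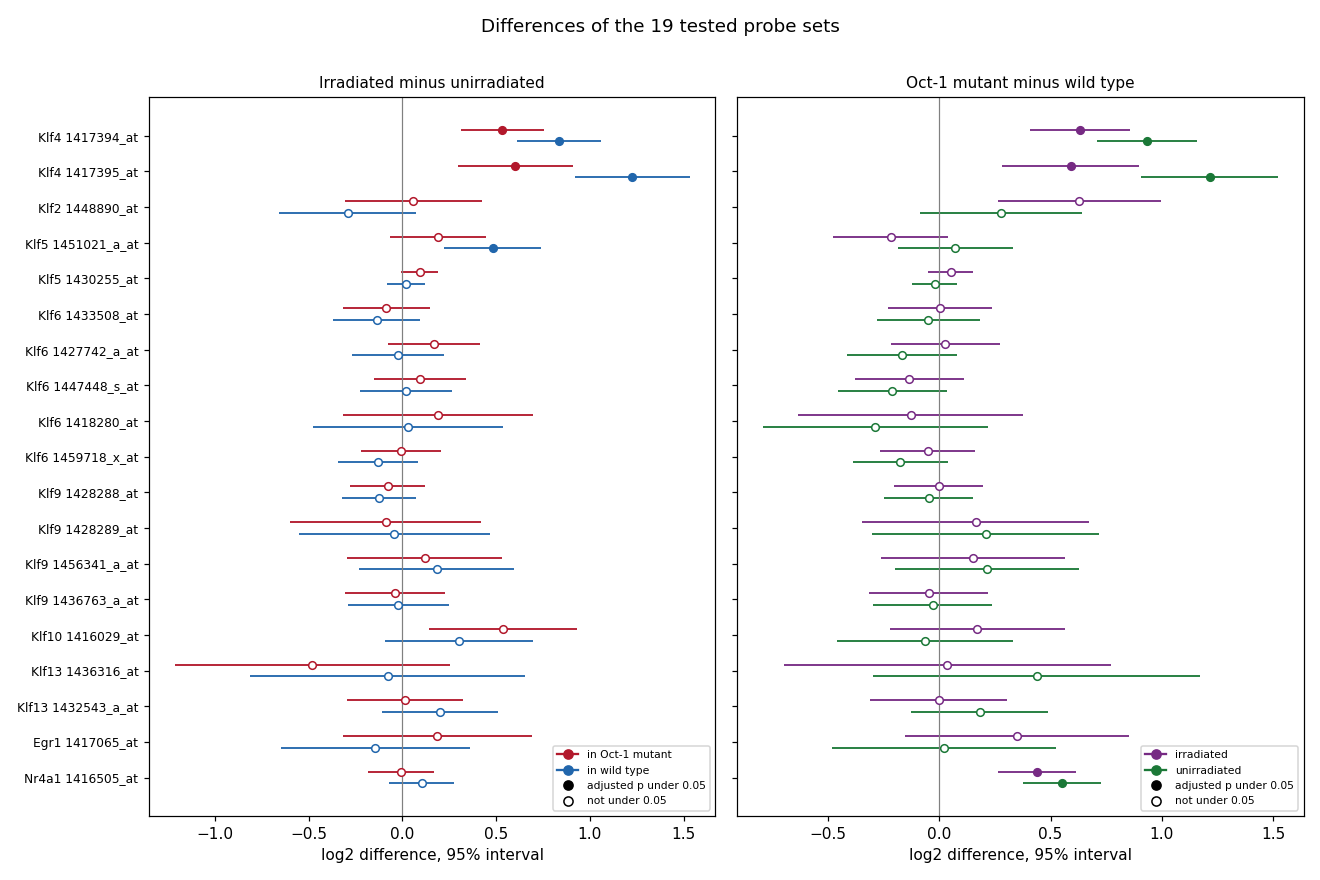
Log2 differences (x axis) of the 19 tested member probe sets (y axis) with 95% intervals, irradiated minus unirradiated by genotype on the left and Oct-1 mutant minus wild type by irradiation on the right; filled points passed an adjusted p of 0.05. Klf4 is filled in all 4 comparisons, Nr4a1 in both genotype comparisons and Klf5 1451021_a_at for irradiation in wild type.

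The run of the title numbers moved more of these probe sets than genotype or irradiation did. The run was fitted as a term beside the 4 group means, while the genotype and irradiation results above had no run term. With the run block, averaged irradiation and averaged genotype were each called in 4 of 19, with 8.61% and 7.15% of all probe sets called higher. Second minus first run, 6 of 19 were higher: 3 of Klf9, both of Klf13 and Klf4 1417395_at, with 12.4% of all probe sets called higher. Lower in the second run were 4 of 19: Klf6 1418280_at (-0.57, adjusted p = 2.08e-05), Egr1 (-0.53, adjusted p = 0.00021), Klf10 (-0.45, adjusted p = 1.36e-05) and Klf2 (-0.38, adjusted p = 0.000241), with 18.5% of all called lower. The higher ones reached 0.64 in Klf13 1436316_at (adjusted p = 0.00565) and 0.59 in Klf9 1428289_at (adjusted p = 7.67e-06). Klf4 1417394_at moved by 0.09 (adjusted p = 0.269), Nr4a1 by 0.06 (adjusted p = 0.382) and Klf5 1451021_a_at by -0.05 (adjusted p = 0.611). Each group holds 2 extracts of each run. The difference of the irradiation effect between runs was called in 0 of 19 member probe sets by limma, with 2 of 19 (Egr1 and Klf6 1433508_at) under 0.05 unadjusted. Over all probe sets 0.0406% were called and 6.21% were under 0.05 unadjusted.

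**Figure D4:**
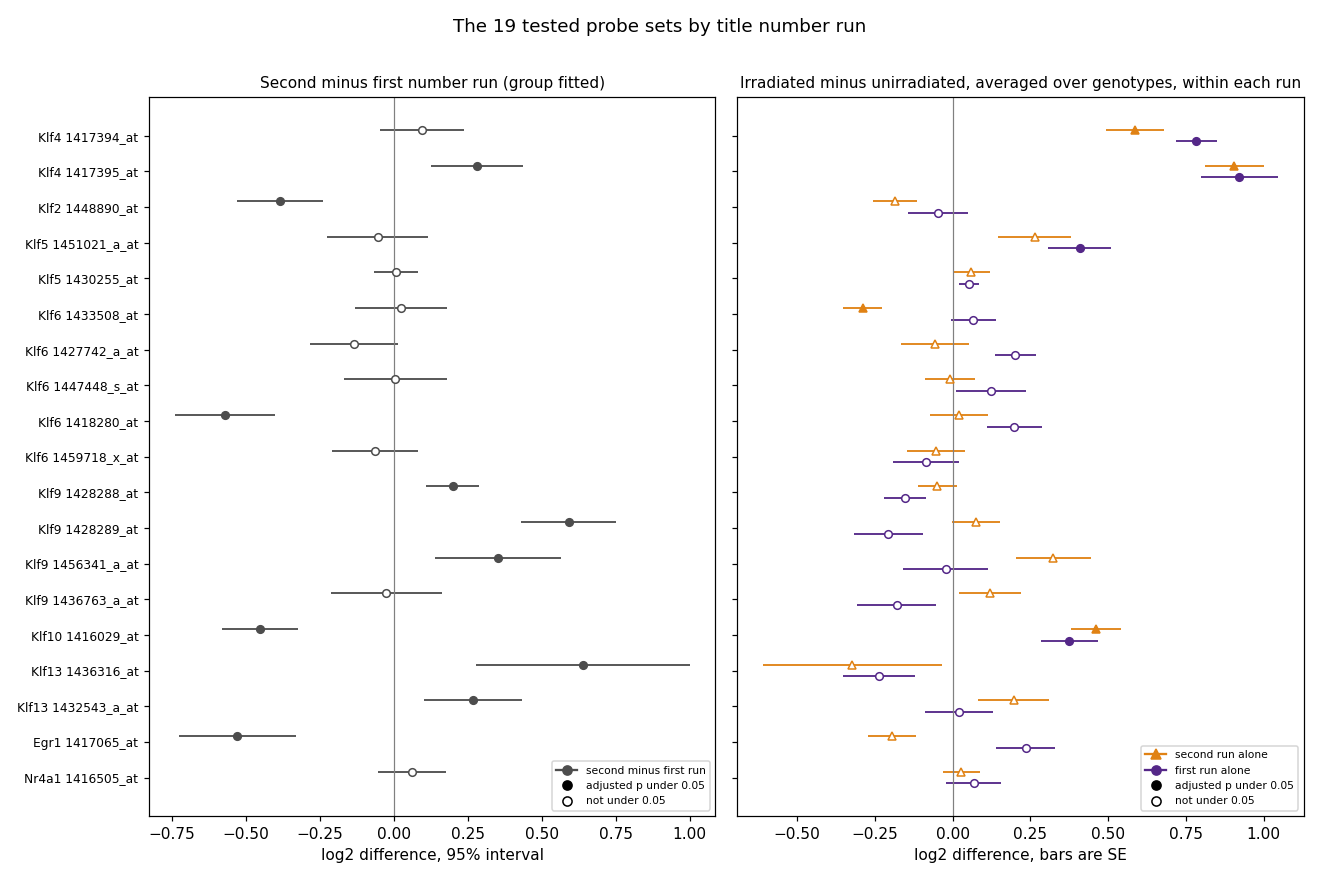
Log2 differences (x axis) of the 19 tested member probe sets (y axis), second minus first run with 95% intervals on the left, and irradiated minus unirradiated within each run, averaged over genotypes, with SE on the right; filled points passed an adjusted p of 0.05. Egr1, Klf2, Klf10 and Klf6 1418280_at lie left of 0 in the run panel, and Egr1 and Klf6 1433508_at lie on opposite sides of 0 in the runs on the right.

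Of 18 other KLF and SP genes, 16 were on the arrays and 10 passed the filter, and limma called 0 of these 10 in any comparison of genotype, irradiation or their difference. At an unadjusted p under 0.05 there were 1 for irradiation in wild type, 0 in the mutant, 1 for genotype in irradiated and 0 in unirradiated MEFs, and 2 for irradiation averaged over genotypes. Over all probe sets 1.41% to 1.65% were called higher within a genotype or irradiation state, and 3.77% and 4.5% in the averaged comparisons. Between 3024 and 3436 of all 27084 were under 0.05 unadjusted within a genotype or irradiation state. The averaged comparisons gave 4965 (irradiation) and 5177 (genotype). Of 7 other EGR, NR4A and NAB genes (the NAB proteins are corepressors of EGR factors) 5 were tested and limma called 0 in those comparisons, with at most 1 under 0.05 unadjusted in each. For the run, Sp3 (-0.50) and Klf3 (-0.32) were lower and Klf16 (0.32) higher in the second run on the log2 scale. Egr3 (-0.85) and Nr4a2 (-0.48) were lower in the second run, the direction of Egr1.

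Of 35 other genes of the serum response, to which Egr1 and Nr4a1 belong, 31 were tested. Irradiation raised 3 of 31 in Oct-1 mutant and 2 of 31 in wild type MEFs, and 0 fell. Over all probe sets 1.65% and 1.47% were called higher. Btg2, an antiproliferative p53 target, rose by 1.02 in the mutant and 1.03 in wild type, and the AP-1 subunit Fosl1 by 0.68 and 0.51, on the log2 scale. Ets2 rose by 0.53 in the mutant. Averaged over genotypes, 6 rose, with 4.5% of all probe sets called higher. The 6 were Btg2 (1.02), Fosl1 (0.60), Ets2 (0.42), the phosphatase Dusp1 (0.41), Maff (0.30) and Phlda1 (0.28). Averaged over irradiation, the AP-1 subunit Fos was 0.62 higher in the mutant, and 6 were lower in the mutant, by adjusted p first the kinase Sgk1 (-0.70), the urokinase receptor Plaur (-0.42), Elk3 (-0.20), Phlda1 (-0.31) and Fosl1 (-0.25). Over all 27084 probe sets 1022 were called higher and 674 lower in the mutant in that comparison. Within an irradiation state the 1 call was Sgk1, lower in unirradiated mutant MEFs (-0.75). The run moved 17 of the 31, with 6 higher and 11 lower in the second. Over all probe sets 12.4% were called higher and 18.5% lower in the second run.

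Among 8 tested genes of cell cycle and p53 control that are linked to Klf4, irradiation raised 2 in each genotype. Over all 27084 probe sets 1.65% were called higher in the mutant and 1.47% in wild type, and 276 and 226 were called lower. Cdkn1a, the cell cycle inhibitor p21, rose by 1.23 in the mutant and 1.39 in wild type, and Mdm2, the p53 ligase, by 1.60 and 1.74. The irradiation effect on Mdm2 differed between runs by -0.73, second minus first (SE 0.09, adjusted p = 0.00568), 1 of 11 probe sets called for that difference over all. The inhibitor Cdkn1b fell by 0.87 in wild type. Averaged over genotypes the differences were 1.31 for Cdkn1a, 1.67 for Mdm2 and -0.77 for Cdkn1b. Cdkn1c, another inhibitor of the family, was higher in the mutant in irradiated (0.64) and unirradiated MEFs (0.68), and Odc1 was lower in unirradiated mutant MEFs (-0.34). Averaged over irradiation the differences were 0.66 for Cdkn1c and -0.25 for Odc1. Of 10 tested genes linked to Egr1, Pdgfa, a growth factor, rose by 0.50 in the mutant and 0.67 in wild type, and the death receptor Tnfrsf10b by 0.62 in the mutant. Averaged over genotypes Pdgfa (0.59), Tnfrsf10b (0.38) and Gadd45b (0.31) rose and the tissue factor gene F3 fell (-0.37). Averaged over irradiation the growth factor Igf2 was 0.27 higher in the mutant. For genotype limma called 0 of these 10 in irradiated (1 under 0.05 unadjusted) and 0 in unirradiated MEFs (2 unadjusted). Over all 27084 probe sets 1.41% and 1.45% were called higher in those comparisons, and 182 and 191 lower. There, 3238 and 3031 of all were under 0.05 unadjusted. In the averaged comparisons 4.5% (irradiation) and 3.77% (genotype) of all were called higher, and 814 and 674 lower.

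In the MEK5, ERK5 and MEF2 pathway upstream of Klf2, 8 of 9 genes were tested. Mef2a rose after irradiation by 0.34 in Oct-1 mutant and 0.49 in wild type MEFs, Mef2c fell by 0.56 in the mutant, and the kinase gene Mapk7, which encodes ERK5, was called for the run (0.39). Averaged over genotypes Mef2a gave 0.42 and Mef2c -0.37. Sgk1, which is also on this list, was lower in the mutant as given above. Of 13 genes of the glucocorticoid response, which is known to induce Klf9, Cebpd was higher in the mutant in irradiated (0.44) and unirradiated MEFs (0.68). Mt2 was higher in irradiated (0.50) and Mt1 in unirradiated mutant MEFs (0.39), while Sgk1 was lower in unirradiated mutant MEFs (-0.75). Irradiation lowered Cebpd in the mutant (-0.35) and Fkbp5 in wild type (-0.41). Averaged over genotypes, irradiation raised Ddit4 (0.68), Dusp1 (0.41) and the receptor gene Nr3c1 (0.35) and lowered Fkbp5 (-0.37), Tsc22d3 (-0.35) and Cebpd (-0.23). Averaged over irradiation, Cebpd (0.56), Mt2 (0.41) and Mt1 (0.28) were higher and Sgk1 (-0.70) and Fkbp4 (-0.36) lower in the mutant. Of 13 early TGF-beta genes, the class Klf10 is known from, 0 were called by limma within a genotype or irradiation state (1 to 4 under 0.05 unadjusted). Averaged over the other factor, Tgif1 rose by 0.30 after irradiation and Id3 was 0.35 higher in the mutant. Beside these 3 lists, 383 to 448 of all 27084 probe sets were called higher and 182 to 276 lower within a genotype or irradiation state. Between 3024 and 3436 of all were under 0.05 unadjusted there. In the averaged comparisons 1220 (irradiation) and 1022 (genotype) of all were called higher, and 814 and 674 lower.

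Genes with the most similar pattern to each called member were taken on the same array type by Pearson r over the 16 arrays, after the run means were removed, as a description. For Klf4 they were Cd55 (r = 0.96), Snap47 (0.955) and Tango2 (0.944), and for Nr4a1 Arap1 (0.982), Gpx7 (0.95) and Klk8 (0.949). For Klf2 they were Igfbp5 (0.949), Ddx59 (0.918) and Nectin2 (0.911), for Klf5 Il11 (0.899), Adipor1 (0.879) and Nup188 (0.868), and for Klf10 Zfp385a (0.948), Efhd2 (0.934) and Ampd2 (0.933). Cd55, which encodes a complement regulator, gave irradiation differences of 0.43 in the mutant and 0.76 in wild type. Its genotype differences were 0.51 in irradiated and 0.84 in unirradiated MEFs. They were in the order of the Klf4 values, which is bound up with the choice of Cd55 by its r on these same arrays. Arap1 was 0.89 higher in irradiated and 1.02 higher in unirradiated mutant MEFs on the log2 scale.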

How the data were processed

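Values were analysed as deposited: log2 probe set values that the authors summarised and scaled. Their method is not given in the sources read, and the log base was taken from the range (0.265 to 15.75 on array A, 0.097 to 15.51 on array B). Array medians were 6.16 to 6.28 and 3.67 to 3.78, so no scaling was added. The array A label of Oct-1 mutant unirradiated replicate 1 lacks its number, which came from the array B label of that title number. Platform annotation named probe sets and symbols were updated through gene identifiers.

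Each array type was fitted in limma 3.58.1 (R 4.3.3) with 4 group means and an intensity trend, over probe sets whose mean reached the 40th percentile (4.962 on array A, 3.362 on array B), 13582 and 13502 of them, controls left out. The difference between runs came from a fit with a run term beside the 4 group means. The difference of the irradiation effect between runs came from a fit with 1 mean per group and run. P-values were adjusted by Benjamini-Hochberg within array type and comparison, and calls were made under 0.05. The fit of 4 group means was tested on simulated data with independent residuals and no run difference. For irradiation averaged over genotypes, a log2 change of 0.5 was recovered in 79% (array A) and 83% (array B) of 100 changed probe sets. A change of 1 was recovered in 93% and 96%, with 13 and 6 false calls. The simulated data held no run difference, so they do not show how the fit behaves with the runs of these data. Summaries and plots used Python 3.11.15, numpy 2.4.6, pandas 2.3.3, scipy 1.17.1 and matplotlib 3.10.9.

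No label says whether replicates came from separate embryos or cultures, so p-values describe the spread between these samples, and 4 arrays per group limit precision. Same-numbered samples deviated together (r 0.32 to 0.72 on array A, 0.24 to 0.60 on array B), but so did other samples of the run (medians 0.555 and 0.403), so the pairing is that of the run. The members, lists and tests were chosen with earlier results of these data known. Every member probe set is accounted for, called list genes are named up to 6 per comparison by adjusted p (calls for the run are given for some lists and genes), and 3 like genes are named per called member. Alternatives were no filter, a filter at the 60th percentile, quantile normalization, no trend, a replicate or run block, each run alone and leaving out each extract. The primary probe set of a gene is the one with its highest mean. Beyond this, the filter and array percentiles, levels of different probe sets are not compared. Promoter sequences are RefSeq's, build GRCm38.p6.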

Additional observations from a re-analysis of the deposited data

Results flagged for a closer look

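In 5 of 76 groups of 4 extracts, 1 extract stood far from the others by Dixon's gap test, which chance alone does at a rate of about 0.05 per group. Klf13 1436316_at was 9.93 in Oct-1 mutant unirradiated replicate 4, with the other 3 between 8.01 and 8.25. Klf4 1417394_at was 9.84 in wild type irradiated replicate 4, with the others between 9.38 and 9.44. Klf6 1459718_x_at was 6.96 in Oct-1 mutant unirradiated replicate 4, with the others between 7.24 and 7.29. Klf9 1436763_a_at was 5.84 in wild type unirradiated replicate 1, with the others between 5.36 and 5.43. Nr4a1 1416505_at was 9.44 in Oct-1 mutant irradiated replicate 4, with the others between 9.58 and 9.60.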

How the results depend on the processing

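Of 3898 values of single probe sets under the alternatives, 3823 kept their side of the threshold. Most of the 3898 were not called as reported, and 2701 of the 3823 came from leaving out 1 extract. The 3823 thus say little about how stable the calls are. The 3823 include uncalled values that changed sign with a shift smaller than the mean SD of the groups. With the sign kept, 43 lost and 17 gained a call. Another 15, not called as reported, changed sign with a larger shift or with a call. Of the called values, 0 changed sign. Of the 19 member probe sets, 2 were called for irradiation in the mutant, against 1 with the filter at the 60th percentile, 1 in the second run alone and 1 to 2 with an extract left out. The first run alone gave 3, in 3 genes that include Klf10 (log2 0.57) and Egr1 (log2 0.61). Over all probe sets 1.62% were called higher in the first run alone and 0.79% in the second. For genotype in irradiated MEFs the count was 3, and 1 in the second run alone. For the run it was 10, and 6 with the filter at the 60th percentile, where fewer probe sets are tested. With the replicate block the counts were 3 for irradiation in the mutant, 4 in wild type, 4 for genotype in irradiated and 3 in unirradiated MEFs, and 4 for each averaged comparison. Calls over all probe sets rose as well. In the same order, 4.21%, 3.66%, 3.56% and 3.64% of all were called higher, and 8.68% (irradiation) and 7.21% (genotype) averaged. Beyond Klf2 and Klf10, as given above, the block changed no call among these probe sets. With quantile normalization the Klf4 1417395_at call for genotype in irradiated MEFs was lost (0.57) and that of Klf2 was gained (0.62). Without the intensity trend the averaged Klf10 call was lost. Causes of these changes were not tested.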
